A study of Saccharomyces cerevisiae with 7 samples.

Results

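The genes described here encode the machinery that copies chromosomal DNA: the polymerases alpha, delta and epsilon with primase, the sliding clamp and its loader, the single-strand binding complex RPA, the origin recognition complex (ORC), the MCM helicase, the GINS complex, the helicase loading and firing factors, the Dbf4-dependent kinase, and the ligase and nuclease of Okazaki fragments. They were chosen by name, as 45 systematic open reading frame names in 11 complexes or groups, out of 6141 in the table. Of these, 40 had a value at all 7 times, and counts refer to these 40 against the 5585 genes with a value at all times. POL12, CDC6, ORC6 and DPB11 had a value at 6 h only, and DPB3 was empty at 6 h.

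The samples were arrays of mRNA from a meiotic culture of Saccharomyces cerevisiae with the mutation Spo11Y135F, at 1, 2, 3, 4, 5, 6 and 8 h, with 1 array per time. All times share this allele. It changes the catalytic tyrosine of Spo11, whose cuts in DNA start meiotic recombination. The sources used here give no strain background, medium or ploidy, and no strain with wild-type Spo11 was analysed here. Each value is the log2 of the ratio of a transcript to a mixture of mRNA from all times, relative to 0 h, so that 1 unit is a 2-fold difference in the transcript's share. It says nothing of how abundant one gene's transcript is beside another's. The RNA came from whole cultures, so a lower share of cells in a stage and less transcript per cell cannot be told apart.

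In meiosis a single round of DNA replication comes before the 2 nuclear divisions. In mitotic budding yeast, ORC marks origins, Cdc6 and Cdt1 load the MCM helicase there in G1, and the kinases CDK and Cdc7-Dbf4 then fire it by recruiting Cdc45 and GINS. Polymerase alpha-primase starts each new strand, polymerase epsilon extends mainly the leading and polymerase delta the lagging strand, and PCNA, loaded by RFC, holds the polymerases on DNA. Transcripts of many polymerase, clamp and RPA genes peak at the G1 to S transition of the mitotic cycle under the factor MBF, whereas those of several MCM genes and CDC6 peak earlier, at the end of mitosis.

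The culture's stage was read from marker genes. IME1, the master regulator of meiotic entry, lay at 2.75, 3.15, 3.50, 3.03, 1.50, 0.41 and 0.23 in order of time, and REC8, the meiotic cohesin, was highest at 3 h with 5.99. NDT80, which starts the programme of the divisions, went from 1.74 at 3 h to 5.17 at 4 h and 7.47 at 6 h. In the list of 6 genes of entry and prophase all were at least 2-fold above 0 h from 1 to 5 h. At both 6 and 8 h 5 of them still were, with list medians of 2.76 and 2.11, and HOP1 was highest at 6 h with 5.88. In the list of 6 genes of the divisions all were at least 2-fold above 0 h from 4 to 6 h, and 5 were at 8 h. Mitotic growth and budding genes had medians between -0.62 and 0.37 over 8 measured genes of 9, but these medians hide a split list. CTS1 and EGT2 were more than 2-fold below 0 h from 3 h onwards, and DSE1 already from 1 h (-1.48). The lowest values of DSE1, CTS1 and EGT2 were -4.32 and -3.67 at 6 h and -2.85 at 3 h. In the other direction, PCL1 was at 1.68 at 1 h and AXL2 at 2.60 at 6 h. The 6 h column had the widest spread over all genes (standard deviation 1.49, against 0.84 to 1.36 at the others), so a value that stands out at 6 h alone rests on that array.

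The replication genes as a whole lay above 0 h early and returned to it by 8 h. In order of time, the 7 medians of the log2 ratio were 0.59, 0.81, 0.71, 0.55, 0.23, 0.44 and -0.07, while the median of all genes stayed between -0.15 and 0.03. At 2 h the quartiles of the 40 genes were 0.38 and 1.11, and 37 of them were above 0 h (50.2% of all genes were). At least 2-fold above 0 h were 14 at 1 h, 15 at 2 h and 11 at 3 h, where 10.8%, 8.68% and 7.68% of all genes passed the same limit. That number was 9 at 4 h (11.5% of all genes), 11 at 5 h (16.3%), 8 at 6 h (18.9%) and 2 at 8 h (12.3%). The share of replication genes past the limit was thus above the background from 1 to 5 h, near it at 6 h and below it at 8 h.

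Few of these transcripts lay far below 0 h at any time. At least 2-fold below was only DPB2 at 8 h (10.8% of all genes) and only RFC2 at 6 h (19.5%), so 2 of 40 genes did so at some time, against 35.2% of all genes. By contrast 26 were at least 2-fold above at some time (34.9% of all genes), and 13 stayed within 2-fold throughout (34.3%). The highest of the 7 values fell at 2 h in 11 genes (27.5%, against 10% of all genes), at 1 h in 9 (22.5%, against 20.7%) and at 3 h in 6 (15%, against 16.1%). The shares at 1 and 3 h were thus near the background. The lowest value fell at 8 h in 20 of 40 genes, against 18.1% of all genes. The transcripts with their highest value at 5 h were POL2, POL3, RFC3, MCM4, PSF2 and SLD5 (15% of the 40, 12.1% of all genes). Those with it at 6 h were ORC1, ORC3, SLD2 and SLD3 (10%, against 21% of all genes).

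**Figure D1:**
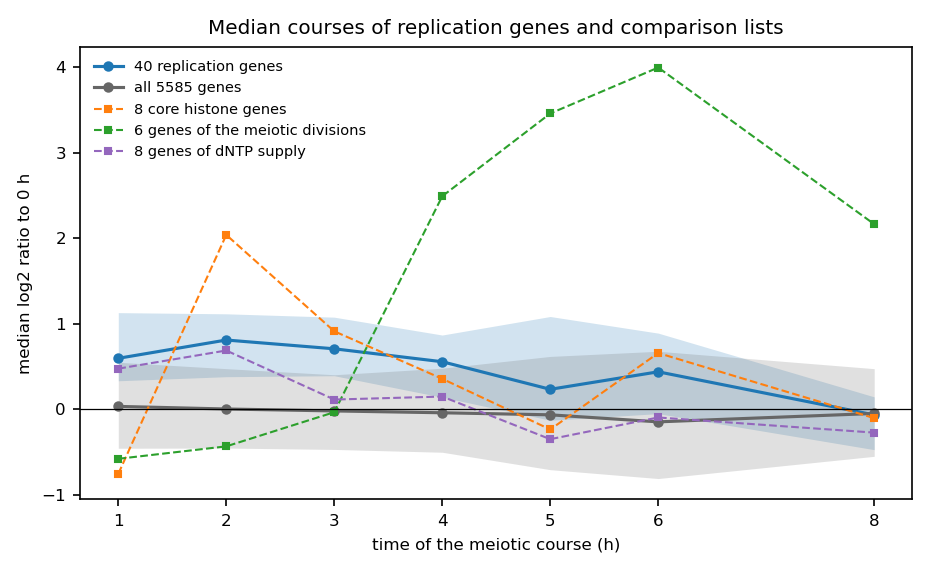
Median log2 ratio to 0 h against time in hours, with shaded quartiles, for the 40 replication genes (blue) and all 5585 genes (grey), and medians of 3 comparison lists (dashed). The replication median is highest at 2 h with 0.81; the histone median goes from -0.76 at 1 h to 2.04 at 2 h, and that of the division genes from -0.04 at 3 h to 2.49 at 4 h.

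The highest replication median thus fell at the time when the 8 core histone genes, which supply the protein for packaging new DNA, had theirs, as the plot of median courses shows. At 2 h each of the 8 histone genes passed the 2-fold limit upwards. Their median was -0.76 an hour earlier, when 35 of the 40 replication genes were already above 0 h (51.9% of all genes). The 8 genes of dNTP supply, which make the building blocks, reached a median of 0.69 at 2 h, when 6 of them were above 0 h. By 5 h the median was -0.35. These medians hide a split list. RNR2 and RNR4 were below 0 h at every time, with -0.30 and -0.95 at 2 h. CDC21 and DUT1 were above 0 h at every time, with 1.20 and 1.50 at 2 h. No test of these differences in timing was made, since each time is 1 array.

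A change from one time to the next is free of the 0 h measurement where both columns share it. From 1 to 2 h, POL30, PSF1 and DBF4 were at least 2-fold higher (2.86% of all genes), with differences of 1.20, 1.12 and 1.25, and MCM4 was lower by as much (2.88%), with -1.12. From 3 to 4 h, the hour in which the division genes set in, 0 of 40 differed at least 2-fold (5.98% of all genes were higher and 1.31% lower), and 11 were higher and 29 lower by any amount (44.6% of all genes were higher). From 6 to 8 h 9 genes were at least 2-fold lower (14.7% of all genes) and 0 at least 2-fold higher (14.6%). These 9 were DPB2, POL31, POL30, RFA1, MCM3, MCM5, CDC45, ORC1 and ORC3. Of them, DPB2, MCM3 and ORC1 had been higher at 6 h than at 5 h by 1.18, 1.52 and 1.19. Their drop by 8 h thus rests in part on the 6 h array. From 5 to 6 h 4 of 40 genes were at least 2-fold higher (11.2% of all genes) and 3 lower (10%), near the background. Both steps include the 6 h array, whose column may not share the 0 h measurement. Its empty rows differ from those of the other columns.

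The difference between the mean of 5, 6 and 8 h and the mean of 1, 2 and 3 h was tested with limma over all 5585 genes. The times of a block are not replicates, so their spread stands in for error, and no array has a repeat at its own time. The p-values therefore rank genes and measure only this scatter. Of the 40 genes, POL30, RFC5 and MCM6 were lower late (2.81% of all genes passed in this direction) and ORC1 and ORC3 were higher late (7.07%). At an unadjusted p under 0.05, 10 were lower (12%) and 2 higher (12.5%). The median difference was -0.56 over the 40 genes and -0.13 over all genes, and 31 of 40 differences were below 0 (57.5% of all genes).

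**Figure D2:**
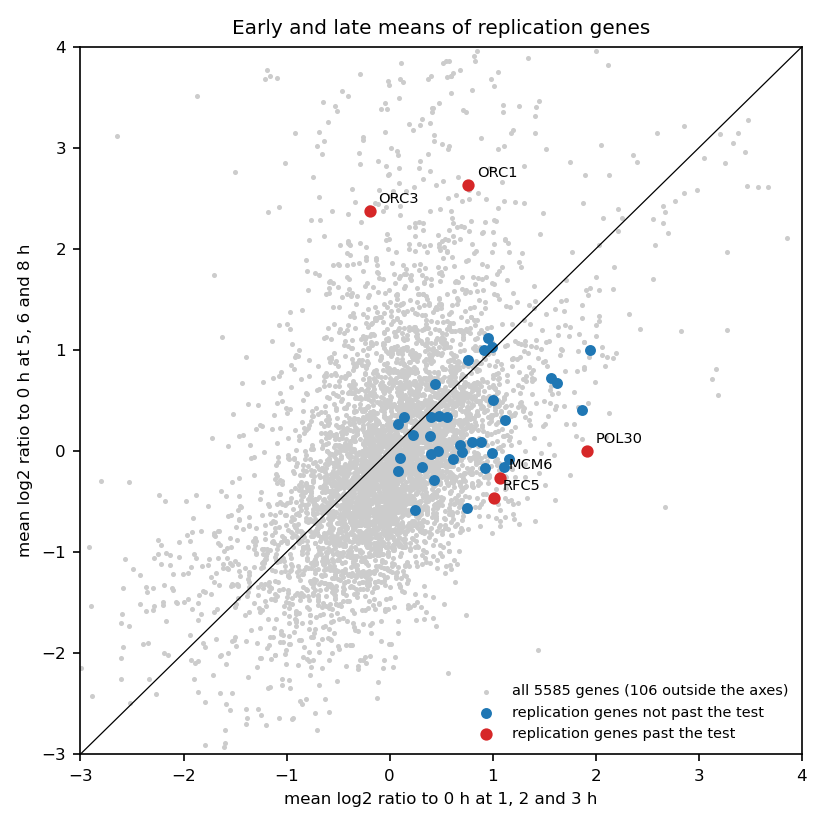
Mean log2 ratio to 0 h at 5, 6 and 8 h against the mean at 1, 2 and 3 h; each point is a gene, and the line marks equal means. The 5 genes past the limma test are red and named, the other 35 replication genes are blue, and 106 of all genes (grey) lie outside the axes.

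A straight line over time was tested in the same way. Only MCM6 fell, with a slope of -0.30 ± 0.06 (SE) log2 units an hour (limma adjusted p = 0.0496; 0.716% of all genes), and 0 rose (1.34%). The call of MCM6 was lost under 8 of 12 alternatives, namely with centred columns (adjusted p = 0.0526), with a trended, robust variance (0.0511) and without any 1 of the arrays of 1 to 6 h (0.0707 to 0.188). ORC3 rose after quantile normalization, with time as a rank or without the 8 h array, and ORC1 in the last of these. At an unadjusted p under 0.05, 13 fell (12%) and 2 rose (11%). A course that goes up and down again scatters widely around a line, which this test counts as error.

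The clamp showed the largest early excursion of the 40 genes. POL30 (YBR088C) encodes PCNA, the ring that tethers polymerases to DNA. In order of time its values were 1.63, 2.84, 1.28, 0.52, -0.06, 0.64 and -0.57. The second of these, at 2 h, stands for a share 7.15-fold that at 0 h. All early values were thus above all late ones, and the peak at 2 h was the highest value of any replication gene before 6 h. The late mean lay 1.92 ± 0.48 SE below the early mean (0.00 against 1.92, limma adjusted p = 0.0245). The call was lost without the 2 h array (-1.46, adjusted p = 0.151), the 1 h array (0.0528) or the 5 h array (0.0751).

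The 5 subunits of the clamp loader RFC, the ATPase that opens PCNA and sets it on DNA, did not share 1 course. RFC5 (YBR087W), a small subunit, was at 1.02, 1.50, 0.52, 0.21, -0.31, -0.46 and -0.63 in order of time, with its highest value at 2 h and all late values below 0 h. Its late mean was 1.48 ± 0.38 SE below the early mean (-0.47 against 1.01, limma adjusted p = 0.0292). That call was lost when the 1, 2, 5 or 6 h array was left out (adjusted p between 0.0540 and 0.200). RFC1, the large subunit, was at 0.33, 0.34, 0.01, -0.08, 0.04, 0.23 and 0.21, the narrowest range of the 40 genes. RFC2 was at 0.70 at 3 h and -1.23 at 6 h, RFC3 was highest at 5 h with 0.84, and RFC4 at 3 h with 0.91. None of RFC1, RFC2, RFC3 and RFC4 passed either test (limma adjusted p between 0.241 and 0.931 for late against early).

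RPA, the heterotrimer that coats single-stranded DNA in replication and in recombination, was the complex with the highest median at each of 1, 2 and 3 h (1.62, 2.01 and 1.64). RFA3 (YJL173C), the small subunit, was at 1.62, 2.58, 1.64, 1.05, 1.10, 1.34 and 0.54. RFA1 (YAR007C), the large subunit, was at 1.63, 2.01, 1.96, 1.15, 1.00, 0.80 and -0.58. RFA2, the middle subunit, was at 1.50, 1.75, 1.63, 1.23, 1.28, 0.85 and -0.10. All 3 were at least 2-fold above 0 h from 1 to 4 h and had their highest value at 2 h. Across the 7 times the courses of RFA1 and RFA2 had r = 0.98, and that of RFA3 had r = 0.84 with RFA1 and 0.80 with RFA2; correlations over times on shared arrays are given here as descriptions. Late means were lower by 0.95 to 1.46, but none of the 3 passed (limma adjusted p = 0.0596 for RFA1, 0.184 for RFA2 and 0.176 for RFA3). With columns forced to 1 distribution by quantile normalization all 3 passed.

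In polymerase alpha-primase, which lays down the RNA-DNA primers, the catalytic subunit and both primase subunits were above 0 h at 1 to 3 h. PRI2 (YKL045W), the large primase subunit, was at 1.16, 1.94, 1.61, 1.32, 1.11, 0.97 and 0.10 and so was above 0 h at every time. PRI1, the small primase subunit, was lower, at 0.29, 0.63, 0.37, -0.04, -0.52, -0.20 and -0.16. POL1, the polymerase subunit, was highest at 3 h with 1.32 and lowest at 8 h with -0.75. None passed either test (limma adjusted p between 0.142 and 0.233 for late against early). POL12, the B subunit, was at 0.97 at 6 h, its only value.

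The polymerase epsilon genes differed in course. POL2 (YNL262W), the catalytic subunit, was at 0.95, 1.00, 1.04, 0.86, 1.30, 1.17 and 0.63, above 0 h at every time and with early and late means of 1.00 and 1.03. DPB2, the essential second subunit, was at 1.22, 1.16, -0.11, 0.11, -0.70, 0.49 and -1.49, the last of these a share 2.81-fold below that at 0 h. DPB4, a histone-fold subunit, was at 0.48, 0.41, 0.96, 0.72, 0.16, -0.31 and -0.09. DPB3, its partner, was at 1.27 at 2 h and -0.26 at 8 h. None of the 3 tested genes passed; for DPB2 the late mean was lower by 1.32 ± 0.53 SE (limma adjusted p = 0.146).

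In polymerase delta, too, the mean of the catalytic subunit was as high late (0.91) as early (0.76). POL3 (YDL102W), the catalytic subunit, was at 0.67, 0.93, 0.68, 0.75, 1.69, 1.00 and 0.03, with its highest value at 5 h. POL32 (YJR043C), a non-essential subunit, was at 1.12, 1.42, 0.95, 0.79, 0.06, 0.18 and -0.46, and every early value was above every late one. POL31 was highest at 1 h with 1.91 and at -0.34 at 8 h. The late mean of POL32 was 1.24 ± 0.37 SE below the early mean, which missed the threshold (limma adjusted p = 0.0531), while for POL3 the difference was 0.15 ± 0.44 SE (0.872). Whether the subunits of a polymerase differ from each other was not tested.

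**Figure D3:**
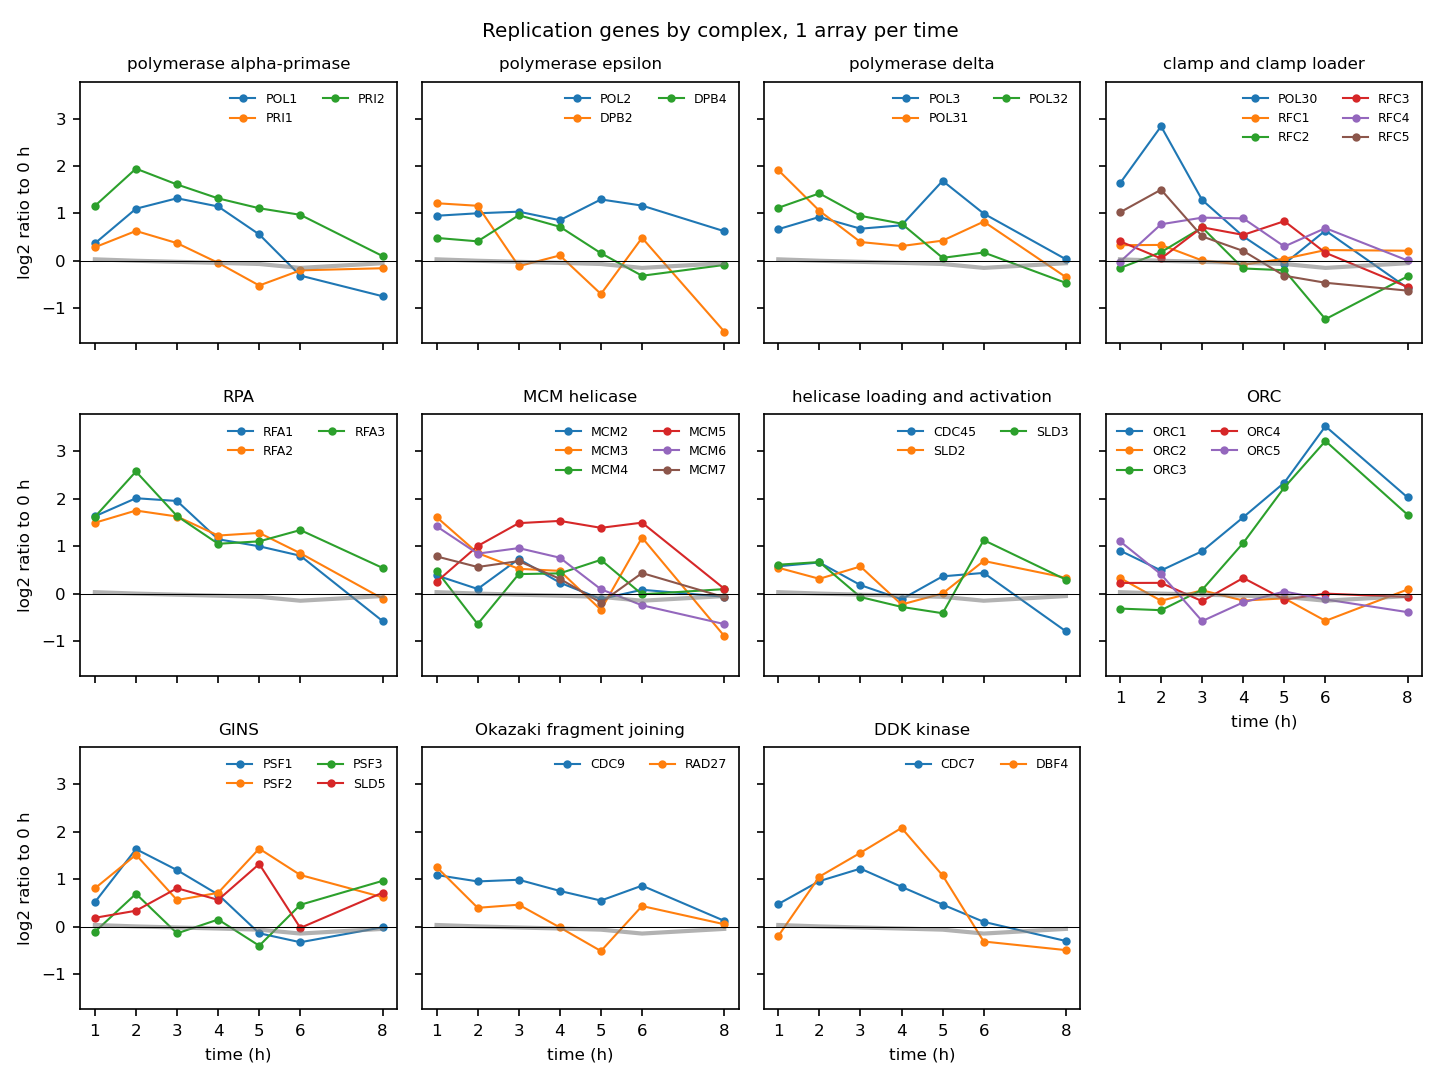
Log2 ratio to 0 h against time in hours for each of the 40 replication genes, 1 panel per complex, with 1 array per time and the median of all genes in grey. The 3 RPA genes run together and are highest at 2 h; in the ORC panel ORC1 and ORC3 reach 3.53 and 3.22 at 6 h while ORC2, ORC4 and ORC5 stay between -0.58 and 1.11.

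The MCM2-7 helicase unwinds the double helix at the fork, and its 6 subunits act in equal number. Their transcripts did not all run together: MCM4 and MCM5 stood apart from the other 4. MCM6 (YGL201C) was at 1.42, 0.85, 0.96, 0.76, 0.09, -0.24 and -0.64, highest at 1 h and lowest at 8 h. MCM4 was at 0.48, -0.64, 0.41, 0.43, 0.71, -0.01 and 0.10, the only MCM gene below 0 h at 2 h. MCM5 lay at 0.25 at 1 h, between 1.01 and 1.53 from 2 to 6 h, and at 0.11 at 8 h. MCM6 was lower late by 1.34 ± 0.38 SE (-0.26 against 1.08, limma adjusted p = 0.0415). That call was lost with columns centred on their medians (adjusted p = 0.0573), with 4 h counted as late (0.120) and without the 1, 2, 3, 6 or 8 h array (0.0713 to 0.172). MCM3 was highest at 1 h with 1.62 and at 1.18 at 6 h between -0.34 and -0.89, so its later peak rests on the 6 h array. MCM2 and MCM7 stayed between -0.19 and 0.79. Across the 7 times r among MCM2, MCM3, MCM6 and MCM7 lay between 0.49 (MCM2 with MCM3) and 0.87 (MCM3 with MCM7), while each pair with MCM4 or MCM5 had r between -0.24 and 0.19. Over all 15 pairs of MCM genes the median r was 0.18, and over the 717 pairs of replication genes from different complexes it was 0.28.

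ORC, the 6-subunit ATPase that marks origins, held the only replication genes that passed the test as higher late. ORC1 (YML065W), the largest subunit, which also acts in silencing at the mating-type loci, was at 0.91, 0.49, 0.90, 1.61, 2.34, 3.53 and 2.03. ORC3 (YLL004W) was at -0.31, -0.35, 0.08, 1.07, 2.24, 3.22 and 1.67. Both were higher at 5, 6 and 8 h than at any early time, and both peaked at 6 h, at 11.6-fold and 9.32-fold above 0 h. They were also the only replication genes at least 2-fold above 0 h at 8 h. The late mean of ORC3 was 2.57 ± 0.44 SE above the early one (2.38 against -0.19, limma adjusted p = 0.00234), and that of ORC1 1.87 ± 0.44 SE above it (2.63 against 0.77, 0.0177). ORC3 passed under all 11 alternatives tried, with adjusted p between 0.000468 and 0.0156, also without the 6 h array (2.15). ORC1 did not pass after quantile normalization (adjusted p = 0.0787) or without the 1, 2 or 6 h array (0.0510, 0.102 and 0.0592).

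The other ORC transcripts stayed within 2-fold of 0 h, except ORC5 at 1 h (2.15-fold above). ORC2 and ORC4 lay between -0.57 and 0.33 at every time, and ORC5 went from 1.11 at 1 h to -0.58 at 3 h and lay between -0.39 and 0.05 after that. Their limma adjusted p for late against early were 0.690, 0.825 and 0.559. ORC6, the smallest subunit, was at -0.23 at 6 h, its only value. The course of ORC1 had r = 0.98 with that of ORC3, and both had r between -0.70 and -0.34 with those of ORC2, ORC4 and ORC5. Across the 7 times ORC1 and ORC3 were also the genes least like the median of the other 39 (r = -0.59 and -0.66). The highest likeness to that median was that of POL32 with 0.94, RFA1 and CDC9 with 0.92 and PRI2 with 0.91. The median over the 40 genes was 0.60; that of all genes with the replication median was 0.07.

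The neighbours of the replication genes were compared with them, after their values had been seen, using the order of protein-coding genes in the R64 annotation of strain S288C and the strand letter of the systematic names. In all, 72 neighbouring pairs hold a replication gene and have values for both. Of these, 3 had r of 0.9 or more across the 7 times (4.17%, against 2.67% of all 4425 pairs), a share near the background. The 3 pairs were ORC1 with SMA2, ORC3 with SPO75, and RFC5 with POL30. SMA2 (YML066C) and SPO75 (YLL005C) both serve spore formation, SMA2 in the growth of the membrane around the spore. Each lies head-to-head with its ORC neighbour, so that the starts of both genes face each other. RFC5 and POL30 lie tail-to-tail, with their ends facing.

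SMA2 was at 0.90, 0.68, 0.86, 4.14, 6.27, 6.60 and 5.17, and r with ORC1 was 0.93. SPO75 was at -0.48, -0.36, -0.40, 1.36, 2.49, 2.52 and 0.87, and r with ORC3 was 0.95. In both pairs the values of 1 to 3 h were low and those of 5 and 6 h high, and the step from 3 to 4 h was larger in the spore gene. Their late means lay 5.20 and 2.37 above the early ones, given without a test since the pairs were picked for their likeness. On the other side, r was 0.35 between ORC1 and TEM1 and -0.27 between ORC3 and SFI1. Among the 1131 head-to-head pairs of all genes 3.18% had r of 0.9 or more. Of the 23 such pairs with a replication gene, these 2 did (8.7%), and the difference in share was not tested. Whether the probes of these ORC genes read transcripts that start at the neighbour was not tested.

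**Figure D4:**
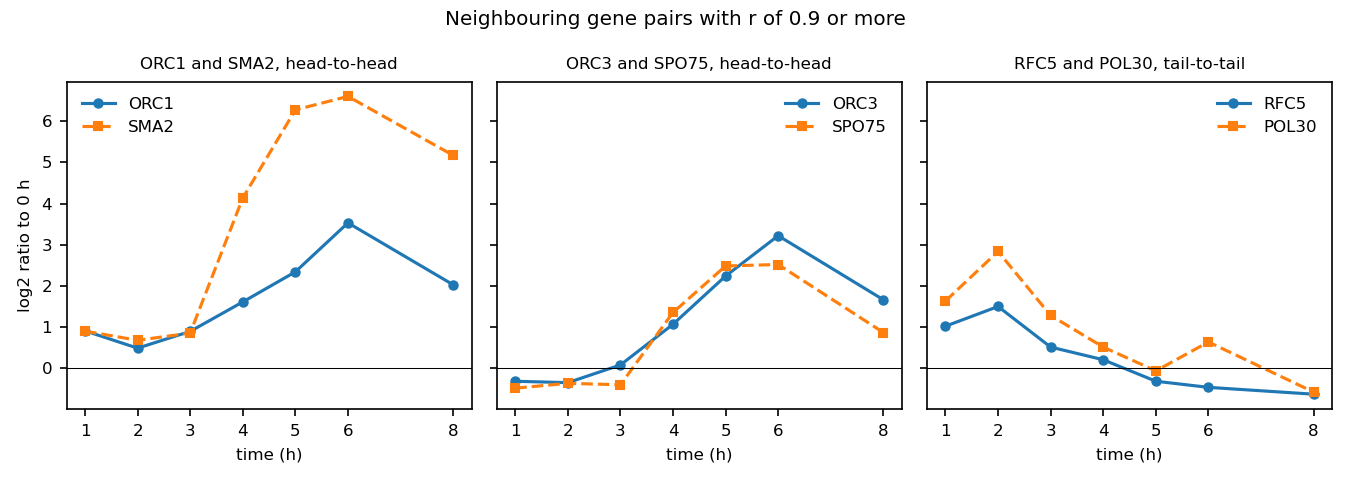
Log2 ratio to 0 h against time in hours for the 3 neighbouring pairs with r of 0.9 or more, 1 array per time. ORC1 and ORC3 (circles) are low to 3 h and highest at 6 h like SMA2 and SPO75 (squares), while RFC5 and POL30 are both highest at 2 h.

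The genes of GINS, the 4-subunit complex that joins MCM and Cdc45 into the active helicase, did not share 1 course. PSF1 (YDR013W) was at 0.51, 1.63, 1.19, 0.67, -0.14, -0.33 and -0.02, with the early peak seen in POL30. PSF3 was at -0.11, 0.69, -0.14, 0.15, -0.40, 0.46 and 0.96, highest at 8 h. PSF2 had values above 1.5 at both 2 h and 5 h (1.51 and 1.64), and SLD5 was highest at 5 h with 1.32 and at -0.03 at 6 h. The late mean of PSF1 was lower by 1.27 ± 0.39 SE, which missed the threshold (limma adjusted p = 0.0604) and passed only with a trended, robust variance; for the other 3 the adjusted p lay between 0.791 and 0.856. Over the 6 pairs of GINS genes the median r was -0.06.

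The factors that load and fire the helicase stayed mostly within 2-fold of 0 h. SLD2 (YKL108W), which CDK phosphorylates to allow firing, was at 0.55, 0.31, 0.57, -0.23, 0.01, 0.69 and 0.34. SLD3, its counterpart that brings Cdc45 to origins, was at 0.61, 0.67, -0.07, -0.28, -0.41, 1.13 and 0.30. The value of SLD3 at 6 h was the only one of the 3 genes past 2-fold, and it stands between lower neighbours on that array. CDC45 was at 0.66 at 2 h and -0.79 at 8 h. None of the 3 passed either test (limma adjusted p between 0.530 and 0.947 for late against early). CDC6, which loads MCM with ORC, was at 1.38 at 6 h, and DPB11, the scaffold between Sld2 and Sld3, at 0.78; each has that value alone, so no early level can be given.

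The kinase Cdc7 with its activator Dbf4 (DDK) fires origins by phosphorylating MCM, and in meiosis it is also needed for break formation and for the first division. DBF4 (YDR052C) was at -0.20, 1.05, 1.56, 2.08, 1.08, -0.32 and -0.50. CDC7 (YDL017W) was at 0.47, 0.96, 1.22, 0.84, 0.46, 0.10 and -0.31. DBF4 was thus highest at 4 h, at 4.23-fold above 0 h, and CDC7 at 3 h, both later than the sliding clamp and RPA at 2 h; their courses had r = 0.83. Besides DBF4, MCM5 and ORC4 had their highest value at 4 h, with 1.53 and 0.33. The early and late means leave out 4 h, and DBF4 did not pass either test (late minus early -0.71 ± 0.53 SE, limma adjusted p = 0.443), nor did CDC7 (-0.80 ± 0.39 SE, 0.227).

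Okazaki fragments are trimmed by the flap nuclease Rad27 and sealed by the ligase Cdc9. CDC9 (YDL164C) was at 1.09, 0.95, 0.99, 0.75, 0.55, 0.86 and 0.12, above 0 h at every time. RAD27 was at 1.26, 0.39, 0.46, -0.02, -0.52, 0.43 and 0.05, so its highest value was at 1 h. Neither passed (limma adjusted p = 0.434 and 0.308 for late against early). CDC9 was 1 of 8 replication genes above 0 h at all 7 times (11.7% of all genes), with PRI2, POL2, POL3, RFA3, MCM5, ORC1 and PSF2.

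Genes that work beside this machinery were followed as lists. Of 23 further fork and repair-synthesis genes 18 were measured, and their median was highest at 2 h (0.45); REV7, a subunit of the translesion polymerase zeta, was higher late (2.48, limma adjusted p = 0.00192) and RAD30, polymerase eta, lower late (-1.50, 0.0471). Of 9 chromatin assembly genes RLF2, the large subunit of CAF-1, was lower late (-1.70, 0.0286), and of 8 dNTP supply genes CDC8, the thymidylate kinase, was lower (-1.31, 0.0459). For the 8 core histone genes the limma adjusted p lay between 0.281 and 0.813. Over all genes, 7.07% passed as higher late and 2.81% as lower late. REV7, RAD30, RLF2 and CDC8 are named because they passed, after their values were seen. Their calls were not followed under the alternatives used for the replication genes.

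Of 13 genes of G1 to S transcription and of the S-phase kinase 11 were measured, and 3 were higher late (7.07% of all genes). MBP1, the DNA-binding subunit of MBF, lay at -0.34, -0.44, -0.85, -0.34, 1.19, 1.31 and 0.42, below 0 h while the replication median was highest (late minus early 1.52, limma adjusted p = 0.0281). SWI6, the subunit it shares with the related factor SBF, lay at 0.16, 0.41, -0.63, -0.13, 0.45, 0.59 and -0.71. Unlike MBP1, SWI6 was thus above 0 h at 2 h. SWI4, the DNA-binding subunit of SBF, named after its values were seen, was at 0.05, 1.48, 1.49, 1.45, 0.81, 1.15 and 0.22 (late minus early -0.28, limma adjusted p = 0.766). CLB5 and CLB6, the S-phase cyclins, were at 1.88 and 1.12 at 2 h, and at 4.18 and 5.29 at 6 h (late minus early 2.01 and 3.77, limma adjusted p = 0.0216 and 0.000259). The cyclins' transcripts were thus highest when most replication transcripts were past their highest values.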

How the data were processed

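Polyadenylated RNA of each time was labelled with Cy5 and a mixture of all times with Cy3, per the labels' protocols. The authors deposited log2 values, each a time's ratio of Cy5 to Cy3 relative to that of 0 h, according to the design text of the series. That text names 2 independent cultures, but each time has 1 column; how they enter it, the platform, background correction, normalization and spot filters are steps not given in the sources used here. Depth does not apply to arrays; their number, 7, limits the precision, and signal over background is unknown. Rows empty at any time were left out, which kept 5585 of 6141.

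Slope (intercept and hours) and late against early (5, 6 and 8 h against 1, 2 and 3 h, with 4 h as its own level) were fitted by lmFit and eBayes of limma 3.58.1 (R 4.3.3), with 5 and 4 residual degrees of freedom and Benjamini-Hochberg adjustment over all genes at a threshold of 0.05. Both were run on simulated data with independent scatter at each array. Such data do not show how the tests fare on ordered times without repeats. The limit for counts at 1 time was 2-fold; these have no test. Names came from the R64 reference table (5655 rows matched); no coordinates are given, since the array's build is unknown. Members, complexes and lists were chosen with earlier results of these data known. All members could be named; values at every time are given for those past a test and, in each complex, for those with the highest and lowest early mean; DPB2 and RFA1 were added after their values were seen. Python 3.11.15, pandas 2.3.3 and matplotlib 3.10.9 were used.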

Additional observations from a re-analysis of the deposited data

How the results depend on the processing

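No paired analysis was possible because each time has 1 array and all carry the replicate number 1. The number of replication genes past the early against late test was 5. It was 9 after quantile normalization (POL32, PRI2, RFA1, RFA2 and RFA3 in addition, without ORC1). It was between 4 and 6 under the other scaling, variance, filter and block settings, and between 1 and 4 when 1 array was left out. Of all 5585 genes the same test called 552, and 493 after quantile normalization. It called between 364 and 585 under the other settings, and between 255 and 812 when 1 array was left out. ORC3 was the only replication gene that passed in all of these settings. The number past the slope test was 1; it was 0 with centred columns or with a trended, robust variance, 10 after quantile normalization, 6 with time as a rank, and between 0 and 4 when 1 array was left out. Over all genes that test called 115, but 430 after quantile normalization, 367 with time as a rank, 868 without the 8 h array (then MCM6 and RFC5 fell and ORC1 and ORC3 rose), between 4 and 19 without the 3, 4 or 5 h array, and 0 without the 1, 2 or 6 h array. The cause was not tested. The median at 2 h was 0.81 as deposited and 0.98 after quantile normalization. At 2 h 15 replication genes passed the 2-fold limit upwards (485 of all 5585 genes). With limits of 1.5-fold and 3-fold, 25 and 6 passed (1144 and 170 of all genes). At 8 h 1 was at least 2-fold below (605 of all genes), and 6 and 0 with these limits (1308 and 210). No result changed direction under the alternatives run. The alternative on promoter motifs was not run, since no sequences were used here.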
